A study of Mus musculus with 2 samples.

Results

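EP300 (p300) is a coactivator that acetylates histones and is brought to enhancers and promoters by DNA-binding factors. Chromatin immunoprecipitation sequencing (ChIP-seq) mapped its binding in livers of B6NCrl mice at postnatal day 0, with no sex collected, in 1 group of 2 replicates. The biosample and donor labels of the replicates are the same, and their spread may therefore be technical. The regions described here are strong EP300 peaks that lack the consensus of GATA1, the word GATA after A or T and before A. They were chosen by 2 measures, the authors' signal value and the sequence: the strongest 10% of the 26844 peaks on chromosomes 1 to 19 and X of the authors' optimal list were taken, and those with the consensus on either strand within 100 bases of the summit were left out. This kept 558 peaks (20.8% of the strongest 10%, 95% Clopper-Pearson interval 19.3 to 22.4), called members below, and set aside 2126 strong peaks with the consensus. A further 14816 peaks below the signal threshold also lack the consensus and are called weaker peaks. The count of members, their signal values and their GATA content follow from the choice and are given as a description. The lists hold no read counts, so the read depth behind a value is unknown. Intervals cover only the counting error of peaks.

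At birth the mouse liver still makes red cells beside its hepatocytes. GATA1 drives red cell and megakaryocyte genes and binds DNA in a complex with TAL1, LMO2 and LDB1, in which TAL1 and its partner contact an E-box, or its half-site CTG, placed shortly before the GATA word. GATA1 also tolerates G as the letter after GATA, so the consensus used here is its narrower form. The glucocorticoid receptor, which liver cells use to switch on the enzymes of fasting and birth, binds a palindrome of which ACANNNTGT is the core (the glucocorticoid response element, GRE). The tissue was checked by peaks within 10 kb of a transcription start site (TSS) of marker genes. Red cell genes had such peaks with signal values of 389.6 (Alas2), 220.1 (Gata1), 182 (Klf1) and 43.6 (Hba-a1), and hepatocyte genes with 99.0 (Hnf4a), 54.8 (Afp) and 49.9 (Alb). Megakaryocyte genes had such peaks with 130.1 (Gp9), 67.2 (Itga2b) and 38.8 (Pf4). Endothelial genes had 61.3 (Stab2), 32.9 (Lyve1) and 32.6 (Kdr). Serpina1a (hepatocyte), Adgre1, Clec4f and Cd5l (macrophage), Myod1 (muscle) and Syn1 (neuron) had none. A signal value in a tissue does not tell the number of bound cells from the binding per cell.

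The name "without a GATA sequence" goes against the sequences of most members. Of the 558, 389 (69.7%) hold the word GATA with other flanking letters within 100 bases of the summit, and 169 hold no GATA word at all. The same rule on each replicate's own list gave 390 and 168 peaks in replicate 1, and 381 and 170 in replicate 2. Among weaker peaks without the consensus 45.8% hold another GATA word, and so do 59.4% of the genome windows without it, taken as 201 bases every 100 kb. The 2 kinds are described side by side from here on.

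Sequences of 201 bases centred on the summit, on the + strand of mm10, show the members on which the results turn. The following 4 hold, in capitals, the motifs described below, and each is the strongest member with its motif. They are a peak in an intron of Nrf1 at chr6:30147123-30147323 with a CEBP word and a GC box, a peak between genes near Serbp1 at chr6:67161677-67161877 with the GRE core and an NFY word, the promoter peak of Rpl32 at chr6:115808792-115808992 with an ETS word, and a peak upstream of Hbb-y at chr7:103860975-103861175 with 2 copies of the AP-1 word.
Nrf1: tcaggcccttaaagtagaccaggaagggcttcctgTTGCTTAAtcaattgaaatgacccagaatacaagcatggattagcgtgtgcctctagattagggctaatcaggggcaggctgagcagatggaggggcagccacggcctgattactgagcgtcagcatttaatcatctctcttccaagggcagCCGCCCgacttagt
Serbp1: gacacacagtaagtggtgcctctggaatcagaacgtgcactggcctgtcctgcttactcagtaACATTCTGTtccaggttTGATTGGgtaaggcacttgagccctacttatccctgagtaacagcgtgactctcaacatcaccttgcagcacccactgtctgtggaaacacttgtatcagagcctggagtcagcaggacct
Rpl32: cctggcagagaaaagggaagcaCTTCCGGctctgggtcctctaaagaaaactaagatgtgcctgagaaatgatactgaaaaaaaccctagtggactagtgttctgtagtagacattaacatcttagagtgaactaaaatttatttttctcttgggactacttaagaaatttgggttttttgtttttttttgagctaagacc
Hbb-y: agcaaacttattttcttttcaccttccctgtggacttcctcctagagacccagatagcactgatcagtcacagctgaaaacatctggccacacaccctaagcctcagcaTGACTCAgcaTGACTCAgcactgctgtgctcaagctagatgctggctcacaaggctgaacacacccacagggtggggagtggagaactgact

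The next 2 show an E-box half-site 9 bases before a GATA word, counted to the G of GATA, with both in capitals. They are among the 4 strongest members with this arrangement, as is the Serbp1 peak already shown, which holds it on the - strand. The Cd24a peak at chr10:43625682-43625882 holds 5 copies, of which the one nearest the summit is in capitals. The Camta1 peak at chr4:151730155-151730355 holds 1.
Cd24a: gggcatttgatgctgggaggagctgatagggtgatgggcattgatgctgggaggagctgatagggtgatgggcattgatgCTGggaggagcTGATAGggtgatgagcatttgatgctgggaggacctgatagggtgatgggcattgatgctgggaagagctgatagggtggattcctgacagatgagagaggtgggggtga
Camta1: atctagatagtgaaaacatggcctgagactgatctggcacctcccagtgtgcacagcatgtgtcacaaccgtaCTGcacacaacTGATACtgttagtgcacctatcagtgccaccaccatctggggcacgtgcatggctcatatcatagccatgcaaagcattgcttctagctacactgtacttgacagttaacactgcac

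The last 3 hold no GATA word and are the strongest such members with the 15-letter form of the GRE, in capitals. This form was added after the motif values had been seen. They lie in introns of Ccnd3 (chr17:47508066-47508266), a D-type cyclin, and Fkbp5 (chr17:28420239-28420439), the co-chaperone that restrains the glucocorticoid receptor, and between genes near Zbtb40 (chr4:137097740-137097940).
Ccnd3: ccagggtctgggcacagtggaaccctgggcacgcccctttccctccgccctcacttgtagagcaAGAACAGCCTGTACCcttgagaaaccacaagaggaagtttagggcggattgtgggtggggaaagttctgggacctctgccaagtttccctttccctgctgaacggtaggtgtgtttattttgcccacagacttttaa
Fkbp5: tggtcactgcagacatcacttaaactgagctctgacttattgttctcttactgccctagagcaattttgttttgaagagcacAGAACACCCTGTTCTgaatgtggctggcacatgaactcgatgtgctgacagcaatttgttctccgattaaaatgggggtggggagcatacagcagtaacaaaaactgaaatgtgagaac
Zbtb40: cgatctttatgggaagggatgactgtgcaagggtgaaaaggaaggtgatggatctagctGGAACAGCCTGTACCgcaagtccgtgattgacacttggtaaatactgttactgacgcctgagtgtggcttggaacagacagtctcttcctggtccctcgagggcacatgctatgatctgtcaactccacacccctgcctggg

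Peaks without the consensus were rarest at the top of the list. Their share was 20.8% in the strongest 10%, 42.3% in the next 10% and 76.1% in the weakest 10%. The share without any GATA word was 6.30% in the strongest 10% and 41.4% in the weakest 10%. In the genome windows 75.8% lacked the consensus. Signal values of members ran from 122 to 582 with a median of 163, against a median of 197 in strong peaks with the consensus. Members with no GATA word had a median of 152, and members with another had 169.8.

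**Figure D1:**
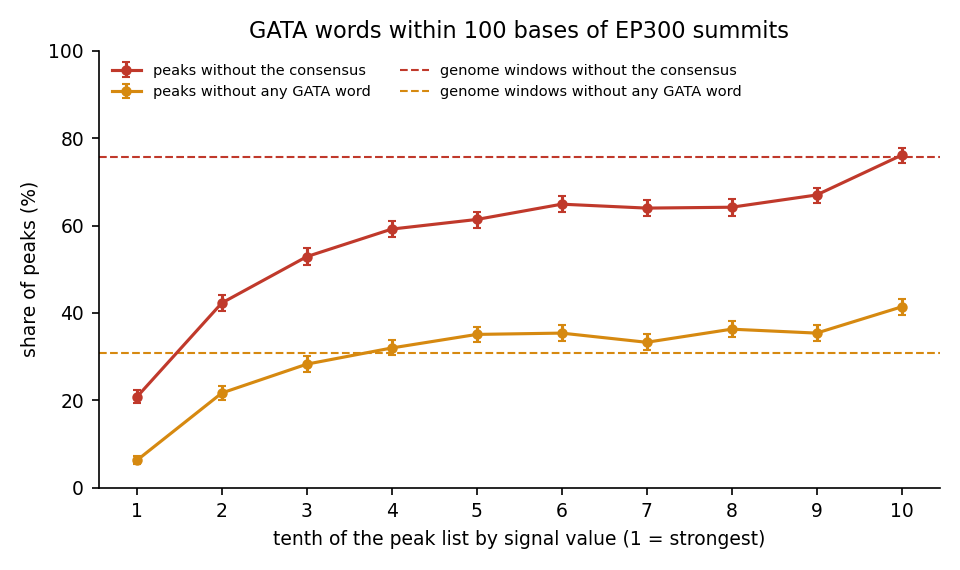
Share of peaks (y axis, %) without the GATA1 consensus and without any GATA word within 100 bases of the summit, in steps of 10% of the optimal list (x axis, 1 is strongest). Bars are 95% Clopper-Pearson intervals and dashed lines are the shares in genome windows; the first point of the upper curve, 20.8%, is the 558 members.

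All 558 members overlapped a peak of at least 1 shared base in each replicate's list and were in the conservative list, from which nothing independent follows, since the optimal list was made from both replicates. In replicate 1 their signal values had a lowest of 57.3, a median of 107 and a highest of 326, and in replicate 2 of 16.4, 57.4 and 253. The scale differed between the replicates by a median log2 ratio of 0.85 (replicate 1 over replicate 2, SD 0.31 across members). Of the members, 92.7% were among the strongest peaks of replicate 1, as many as were taken from the optimal list, and 86.9% among those of replicate 2, against 95.8% and 93.6% of strong peaks with the consensus. Summits lay within 25 bases of the optimal summit for 92.1% of members in replicate 1 and 82.3% in replicate 2. Around the replicate's own summit 5 members gained the consensus in replicate 1 and 12 in replicate 2. When the whole rule was run on each replicate alone, 91.8% of the 558 overlapped a peak it chose in replicate 1 and 85.1% in replicate 2.

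**Figure D2:**
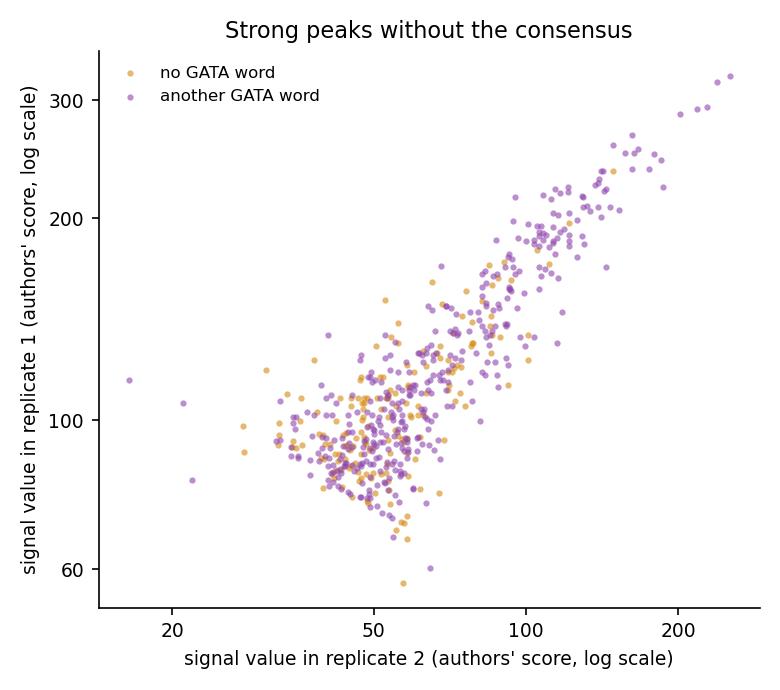
Signal value of each of the 558 members in replicate 2 (x axis) and replicate 1 (y axis), both log scales of the authors' score. Orange points are the 169 members with no GATA word and purple points the 389 with another; both kinds lie along 1 band apart from a few members low in replicate 2, with medians of 57.4 and 107 on the axes for all members.

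GATA words other than the consensus stood at the summits of members. The nearest GATA word of any kind lay within 25 bases of the summit in 241 members (43.2%), against 78.9% of strong peaks with the consensus and 16.6% of weaker peaks without it. Another 88 members (15.8%) had it at 25 to 50 bases. The letters were mostly the consensus with 1 change, as they also were at 400 to 450 bases. The G-ending words were the most frequent: AGATAG occurred 135 times within 50 bases of members' summits and 25 times at 400 to 450 bases, and TGATAG occurred 81 and 17 times. Of all members 202 (36.2%) held one of these 2 words within 100 bases, against 33.4% of strong peaks with the consensus and 15.5% of weaker peaks without it. Words with C in first place were rare away from summits and more frequent at them, though less so than words with A or T in first place. CGATAA occurred 29 times within 50 bases and 2 times at 400 to 450 bases, CGATAG 21 and 1 times, and CGATAT 19 and 1 times. In contrast GGATAG occurred 12 and 18 times and GGATAT 21 and 19 times. Strong peaks with the consensus had the C-first words more often at summits too (CGATAA 77 and 13 times, CGATAG 27 and 6, CGATAT 19 and 6). The shares of members with the nearest full consensus at each distance beyond 100 bases were near those of weaker peaks, and the difference was not tested. It was 100 to 150 bases from the summit in 12.2% of members and 9.40% of weaker peaks, 150 to 200 bases in 8.06% and 7.84%, and 200 to 250 bases in 6.81% and 7.53%. None lay within 750 bases in 32.3% and 31.9%.

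**Figure D3:**
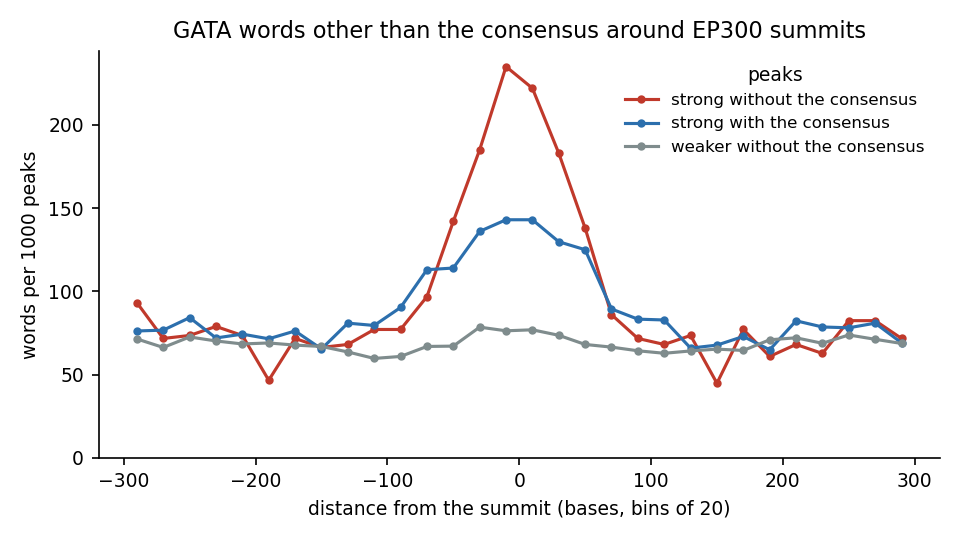
GATA words other than the consensus per 1000 peaks (y axis) by distance from the summit (x axis, bases, bins of 20) in strong peaks without the consensus, strong peaks with it and weaker peaks without it. The curve of strong peaks without the consensus is highest within 50 bases of the summit, where AGATAG occurred 135 times.

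In 99 of the 389 members with another GATA word, an E-box half-site stood 9 bases before it. CTG followed by 9 bases and GATA was thus present within 100 bases of the summit in 25.4% of them (95% interval 21.2 to 30.1). At spacings of 0 to 20 bases other than 8, 9 and 10, the share had a median of 5.14% and a highest value of 9.0%. At 8 bases it was 12.1% and at 10 bases 8.74%, against 18.4% and 12.2% in strong peaks with the consensus. Strong peaks with the consensus had 34.0% at 9 bases (median elsewhere 7.57%), and weaker peaks with another GATA word 7.23% (3.6%). In the replicates' own lists the members' share was 25.6% and 25.7%. The GATA word of the pair was AGATAG in 28 members, TGATAG in 18, TGATAC in 9 and TGATAT in 9. The pair lay at the summit, a median of 18.5 bases away, and within 25 bases in 59 of the 99. Members with the pair had a median signal of 204 and 16.2% lay at promoters, while the 290 other members with another GATA word had 164 and 23.8%. In 9 members the pair occurred more than once. The Cd24a peak shown above held 5 copies, and a peak near Kctd3 with a signal of 326 held 6.

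**Figure D4:**
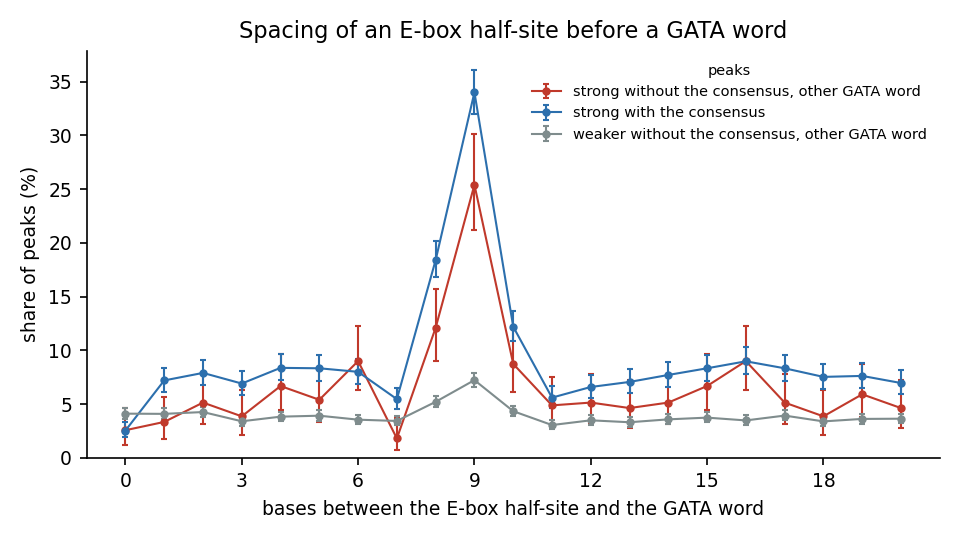
Share of peaks (y axis, %) with an E-box half-site before a GATA word, by the number of bases between them (x axis), in strong peaks without the consensus that hold another GATA word, strong peaks with the consensus and weaker peaks without it that hold another GATA word. Bars are 95% Clopper-Pearson intervals; at 9 bases the values are 25.4%, 34.0% and 7.23%.

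Members lay at promoters more often than strong peaks with the consensus. A summit within 1 kb of a protein-coding TSS was found for 144 members (25.8%, 22.2 to 29.6) and for 8.42% of strong peaks with the consensus, a difference of 17.4 percentage points (95% Newcombe interval 13.7 to 21.3). In the replicates' own lists the shares were 27.1% against 8.65% in replicate 1 and 24.1% against 8.63% in replicate 2. Over all peaks of the list 20.9% lay at promoters. Below the signal threshold 29.7% of peaks without the consensus and 9.41% of peaks with it did so. The gap was therefore not particular to strong peaks. Members differed from the weaker peaks by -3.92 points (-7.46 to -0.0677), but in replicate 2 the interval held 0 (-4.35 to 2.92). The interval also held 0 in the conservative list (-6.81 to 0.611), with 150 or 250 bases searched and for any GATA word. With promoter distances of 500 bases or 5 kb it held 0 too. Among the strongest 5% of peaks the difference from peaks with the consensus was 7.39 points. Members with no GATA word lay at promoters more often (34.9%) than members with another (21.9%), a difference of 13.1 points (4.99 to 21.4), as in both replicates. This gap was not particular to members either. Weaker peaks with no GATA word lay at promoters in 35.1% and weaker peaks with another in 23.4%. Introns held 31.5% of members and 49.5% of strong peaks with the consensus, and intergenic sequence 37.6% and 38.7%. The median GC content of the 201 bases was 50.7% in members and 47.8% in strong peaks with the consensus. At promoters it was 55.7% and 49.3%, and away from them 49.3% and 47.8%. Over all peaks below the signal threshold the median was 49.3% without the consensus and 45.8% with it.

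Fixed consensus words of 29 motifs were searched on both strands within 100 bases of the summits. A motif was called when the interval of the difference of shares, widened so that the error over the 29 motifs is 5%, left out 0 and both replicates' own lists gave the same sign. By this rule 6 motifs (20.7%) were more frequent in members than in strong peaks with the consensus and 0 were less frequent. The GC box GGGCGG, bound by SP factors, was found in 15.9% of members against 6.26% of strong peaks with the consensus. CCAATSR, the word of NFY, was found in 11.6% against 5.60%, and CCGGAAG, bound by ETS factors, in 4.30% against 0.988%. The GRE core was found in 15.9% against 9.74%. The last 2 were rare: CAAAGGTCA, a direct repeat bound by HNF4 and by RXR with PPAR (DR1), in 9 members against 3 peaks, and TGACGTCA, bound by CREB (CRE), in 7 against 2. The CRE call was lost without replicate 1 (difference 0.451 points, -0.242 to 2.62), where the CEBP (6.03 points, 1.17 to 11.8) and FOXA words described below were called. The DR1 call was lost with 250 bases searched (0.0522 points, -0.760 to 2.82), with 150 bases and for any GATA word, and in the strongest 5% the GC box and the GRE alone were called. With 250 bases the CRE call was lost too (1.05 points, -0.00423 to 4.25), and the word of ONECUT factors was called. None of the 6 words called in the main comparison holds GATA. The choice by sequence still left members with a higher median GC content (50.7% against 47.8%), and its part in these calls was not tested. CEBP and AP-1 words had larger differences than the last 2 but were not called: TTGCNNAA, bound by CEBP factors (13.4% against 9.55%, interval of the difference -0.578 to 9.37), and TGAGTCA, bound by AP-1 and NF-E2 (8.96% against 5.69%, -0.321 to 8.01). CEBP was called with A or G as the last letter (6.52 points) and for any GATA word (7.89 points).

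**Figure D5:**
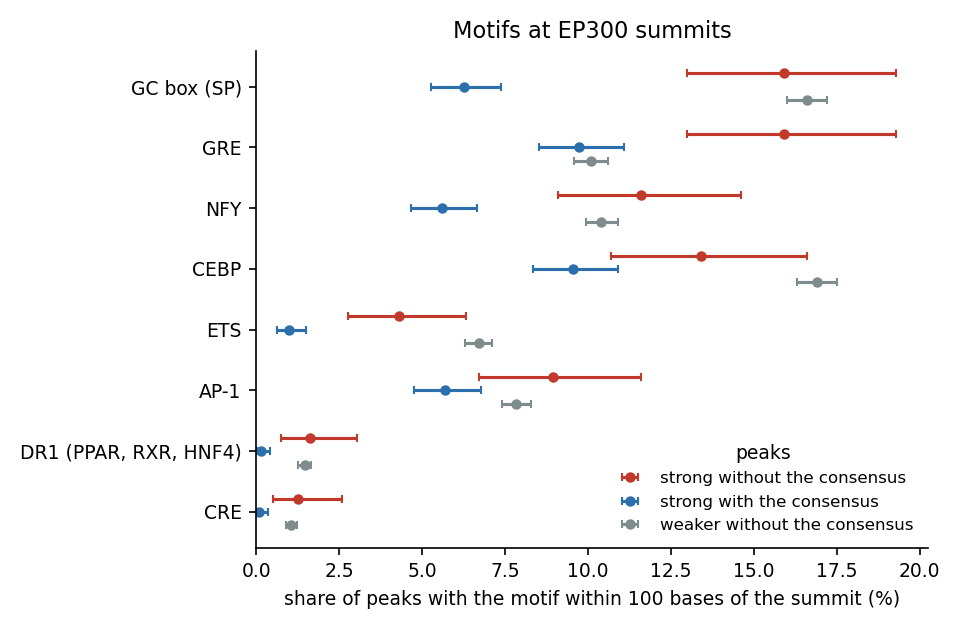
Share of peaks with each motif within 100 bases of the summit (x axis, %) in strong peaks without the consensus, strong peaks with it and weaker peaks without it. Points are shares and bars 95% Clopper-Pearson intervals, for the 6 motifs called and for CEBP and AP-1; the GRE stands at 15.9%, 9.74% and 10.1%.

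The called motifs fell into a promoter set and a distal one. At the 144 promoter members the GC box was found in 37.5%, NFY in 19.4% and ETS in 10.4%, and the GRE in 4.17%. At the 414 distal members these shares were 8.45%, 8.94% and 2.17%, and the GRE was found in 83. When distal peaks were compared with distal peaks, the intervals of the GC box, NFY, ETS and CRE held 0 (GC box 8.45% against 5.44%, NFY 8.94% against 5.29%). The called motifs were then 4: the GRE (83 of 414 against 9.96%, a difference of 10.1 points, 4.17 to 17.2), DR1, CEBP (15.2% against 9.91%) and AP-1 (10.4% against 5.86%). In windows centred 500 bases to each side of the summit the GRE core was found in 6.90% of windows at members and 7.38% at strong peaks with the consensus. Within 20 bases of the summit, members had 78.9 GRE matches per 1000 peaks, strong peaks with the consensus 19.3 and weaker peaks 31.2. The GC box was found in 7.08% of flanking windows at members and 3.88% at strong peaks with the consensus. Its matches per 1000 members were 44.8 within 20 bases of the summit and 55.6 in the bin centred at -80 bases.

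Set against weaker peaks, which lack the consensus too, 2 of the 29 motifs (6.90%) were called, both higher in members. The GRE was found in 15.9% against 10.1%, a difference of 5.89 points (1.56 to 11.4). CAGATG, an E-box bound by TAL1, was found in 20.6% against 14.7%, a difference of 5.94 points (1.01 to 11.9). Members with another GATA word held it in 23.7%. Members with no GATA word held it in 13.6%, near the 13.4% of weaker peaks with none. In the flanking windows CAGATG was found in 16.7% at members and 13.9% at weaker peaks. CEBP words were found in 13.4% of members and 16.9% of weaker peaks, with an interval that held 0. The intervals of the GC box (15.9% against 16.6%), NFY (11.6% against 10.4%) and ETS (4.30% against 6.70%) also held 0.

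The members with no GATA word carried the GRE most often. Their share was 22.5% (38 of 169), against 10.1% of weaker peaks with no GATA word, a difference of 12.3 points (3.88 to 23.8). It was the 1 motif called in this comparison (3.45% of 29). Members with another GATA word had 13.1%, and the interval of that difference held 0 (-1.11 to 21.6). Away from promoters 36 of 110 members with no GATA word (32.7%) held the core, against 15.5% of distal members with another GATA word, a difference of 17.3 points whose interval left out 0. The GC box was the 1 motif called between the 2 kinds of members (3.45%), in 24.9% of those with no GATA word and 12.1% of those with another. FOXA words (TGTTTAC, bound by the liver pioneer factors) were found in 11.2% and 4.11%, and CEBP words in 17.8% and 11.6%, neither called. Away from promoters, the FOXA share was 14.5% against 4.61% (9.94 points, 0.624 to 23.6). The GC box share there was 16.4% against 5.59% (10.8 points, 0.803 to 24.8), and both intervals left out 0. Weaker peaks with no GATA word held the GC box in 20.6%, FOXA words in 6.55% and CEBP words in 17.4%. The intervals of their differences from members with no GATA word held 0 (GC box 4.23 points, -4.73 to 15.9). Between distal peaks with no GATA word, the GC box share was 16.4% in members and 8.08% in weaker peaks, and that interval barely left out 0. The 15-letter form of the element was found in 17 members with no GATA word (10.1%, 95% interval 5.97 to 15.6), in 2.31% of members with another, in 1.18% of strong peaks with the consensus and in 120 of 8025 weaker peaks with no GATA word. The difference from these weaker peaks was 8.56 points (3.35 to 18.1). In the flanking windows of members it was found in 0.269%.

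Some members with no GATA word stood near genes that glucocorticoids are known to induce. The list of 20 such genes was written after the names of the genes near members had been seen, so its counts are a description, and 17 of the 558 members lay nearest to its genes. Of the 20, 11 were nearest to a member and 7 to a member with no GATA word, while 5 were nearest to a strong peak with the consensus. Over all protein-coding genes, 2.35% were nearest to a member and 7.17% to a strong peak with the consensus. At most 169 of the 21646 genes can be nearest to a member with no GATA word. Zbtb16, a zinc finger repressor, had 2 intronic members with signal values of 255 and 207, which read 162 and 130.3 in replicate 1 and 93.3 and 78.2 in replicate 2. The Fkbp5 member had 225 (123 in replicate 1). Klf9, a KLF factor that responds early to the hormone, had 2 members upstream, at 221 and 188. Of the members near Per1, a clock gene, the one 1.85 kb upstream of a start had no GATA word and a signal of 217. Ddit4, an inhibitor of mTORC1, had 3 members, at 198, 136 and 131. The member 2.46 kb upstream of Tat, tyrosine aminotransferase, had 138. The 15-letter element was found in 1 Zbtb16, 1 Klf9 and 1 Ddit4 member and in the members named here of Fkbp5 and Per1. A promoter member of Mt1, which has a GATA word, held it too. It was absent from the members nearest to Tat, Cebpb, Errfi1, Nfkbia and Pck1. Most of the 26 members with the element were nearest to genes outside the list, such as Ccnd3 and Angptl4, an inhibitor of lipoprotein lipase. Each of these peaks was in both replicates' lists, as was every member, and none was tested alone.

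The strongest members held GATA words and lay away from promoters. All 12 of the strongest held another GATA word, none was a promoter, and 7 lay between genes. The strongest lay 29.8 kb downstream of Cd24a, a surface glycoprotein gene of immature blood cells, with a signal of 582 (326 and 253 in the replicates). A second lay 45.8 kb downstream of the same gene, with 523 (293 and 228). The member nearest Serbp1, an RNA-binding protein gene, had 557, although it lay 105 kb from it, and that nearest Lao1 had 510.2 at 67.0 kb. A member 38.5 kb upstream of Odc1, which makes the first enzyme of polyamine synthesis, had 489. A pair of members lay upstream of Hbb-y, the embryonic beta-globin gene at the side of the cluster that holds its locus control region, at 7.86 and 12.7 kb, with 433 (249.9 and 179) and 426 (266 and 162). The first of them is the tandem AP-1 sequence shown above, which also matches the longer NF-E2 word. The others were in introns of Aqp9 (424), a glycerol channel gene, Alg9 (422), Hs6st1 (418), Serinc3 (417) and Syt14 (414). The signal values of these 12 were higher in replicate 1 than in replicate 2 without exception, as was the median over members.

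The strongest promoter members included those of Riok2 (367), a kinase of small ribosomal subunit assembly, Lmo2 (299.9), the bridge of the TAL1 and GATA1 complex, Rpl32 (297), Pigq (296), Cdca7 (287), Abcg2 (281), an exporter of porphyrins and urate, and Wdr77 (278). Of the promoters named here, that of Cdca7 alone held no GATA word. At Lmo2, 954 bases upstream of the nearest start, the GATA word was CGATAG at 17.5 bases from the summit. At Abcg2 an E-box half-site stood 9 bases before a GATA word. The 59 promoter members with no GATA word had a median of 16.0 CpG in 201 bases and a median signal of 146, and the 85 with another GATA word had 9.0 and 153. A GC box was found in 40.7% and 35.3% of them, and an NFY word in 28.8% and 12.9%.

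Named by the nearest protein-coding TSS, the 558 members belonged to 509 of 21646 genes (2.35%), and the strong peaks with the consensus to 1553 (7.17%). The 180 genes in both were 35.4% of the first set and 11.6% of the second. Of 45 red cell genes, 10 were nearest to a member and 38 to a strong peak with the consensus, and none was nearest to a member without a GATA word. At most 169 of the 21646 genes can be nearest to a member without a GATA word, so this 0 is not read as a result. The strongest of the members nearest to red cell genes was in an intron of Alas2, the first enzyme of heme synthesis in red cells, with 315 (183 and 130.2), followed by Slc4a1 (306), the anion exchanger band 3, and Lmo2. Others were the promoters of Ank1 (217), Hbb-bs (204) and Epor (152). Of 40 genes of liver metabolism, 11 were nearest to a member and 7 to a strong peak with the consensus. Cd36, a fatty acid carrier, led them (402), followed by Pcx (264) and Ppargc1a (244 and 237), a coactivator of gluconeogenesis, whose members lay 514 and 264 kb away. Of 26 hepatocyte transcription factor genes, 5 were nearest to a member (Cebpa, Cebpb, Hhex, Onecut1 and Rxra) and 3 to a strong peak with the consensus. Of 37 genes of secreted liver proteins the counts were 0 and 2.

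Of 26 immediate early genes, 4 were nearest to a member, led by Fos (206) and including Myc, Gadd45b and Zfp36, and each of these members held no GATA word. Over all genes, at most 169 of 21646 can be nearest to such a member. Strong peaks with the consensus were nearest to 7. Of 31 ribosomal protein genes, 3 were nearest to a member (Rpl32, Rpl3 and Rps19) and 1 to a strong peak with the consensus. Of 20 megakaryocyte genes the counts were 1 (Vwf, 131) and 5, of 26 myeloid genes 2 (Hmox1, 166, and Slc40a1) and 1, of 18 endothelial genes 1 (Stab2, 142) and 2, and of 19 clock genes 1 (Per1) and 1. Of 20 muscle genes 0 and 0 were nearest. These small counts were not tested.

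By the rule for motifs, further genes near the strongest members with each motif were March3 (GC box, 378), Lao1 (GRE, 510.2), Syt14 (NFY, 414), Riok2 (CEBP, 367), Rtkn2 (ETS, 267) and Mbnl1 (AP-1, 353), a splicing factor gene. Listed motifs were absent from 76 members, 14 of them with no GATA word and 62 with another.

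Members stood beside peaks with the consensus less often than did other strong peaks. Another summit with the consensus lay within 12 kb of 270 members (48.4%, 44.2 to 52.6), against 59.5% of strong peaks with the consensus, a difference of -11.2 points (-15.8 to -6.52). Among distal peaks alone the difference was -3.66 points and its interval held 0 (-8.94 to 1.54), and so it did for the strongest 5% (-2.31, -9.74 to 4.77). Weaker peaks had 35.9%, a difference of 12.5 points (8.28 to 16.7). Members with no GATA word had such a neighbour in 35.5% and members with another in 54.0%, a difference of -18.5 points (-26.9 to -9.52) that was also seen in both replicates' own lists. Weaker peaks with no GATA word had 33.9%.

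The last members inside the signal threshold were those nearest Dpep2nb (122.20), Sephs2 (121.91) and Ptpn1 (121.87). The first peaks without the consensus outside it were nearest Ttc39a (121.66), Maz (121.63) and Gstm7 (121.45). The 2 sets lie within 1 signal unit of each other, so the threshold falls in a continuous range.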

How the data were processed

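Of the deposited peak lists on mm10, 4 were used: 1 per replicate (300000 peaks each), the optimal (26883) and the conservative (23700), the last 2 thresholded on the irreproducible discovery rate between replicates. Per the deposited descriptions, peaks were called on alignments with a control alignment; the aligner, caller and threshold were not given in the sources used here. The signal value is the authors' score per peak as deposited, on an unstated scale, and only ranked and described peaks. The deposited summit offset gave each summit. No list gives read counts.

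Sequence came from the GRCm38 RefSeq genome and genes from GENCODE. Fixed words were searched on both strands, tested on simulated sequences, with Python 3.11.15, scipy 1.17.1 and statsmodels 0.14.6. Where the rule was run on a replicate's list, that list was first cut to the length of the optimal list. Intervals are 95% Clopper-Pearson for shares and Newcombe for differences.

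Members, gene lists and motifs were chosen with earlier results of these data known. Named are the genes nearest to the 12 strongest members, the 8 strongest promoter members, the 2 strongest with each of the 6 motifs of largest difference, the strongest of each list and those at the threshold. Other genes, the glucocorticoid list and the 15-letter element were chosen after their values were seen. Some results under this rule are not reported here. Alternatives varied the consensus, ranks, lists, repeats and distances.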

Additional observations from a re-analysis of the deposited data

How the results depend on the processing

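The promoter difference between strong peaks without and with the consensus kept its sign and left out 0 in all 13 alternatives run. The share of strong peaks without the consensus follows its definition: 29.5%, 18.2% and 15.2% with 50, 150 and 250 bases searched, 6.30% for any GATA word, 13.3% with A or G as last letter, 14.9% in the strongest 5% and 31.6% in the strongest 20%. Their promoter share was 21% with 50 bases, 34.9% for any GATA word, 32.0% with A or G, 16.5% and 30.8% in the strongest 5% and 20%, and 42.5% with a promoter distance of 5 kb. Motif calls were 2 in the strongest 5% (GC box and GRE) and 14 in the strongest 20%. The share beside a summit with the consensus was 53.3% with 250 bases, 55.6% for any GATA word, 61.0% in the strongest 5%, 31.5% and 79.7% within 5 and 50 kb, and 55.6% for distal peaks. Without 1 replicate the values ran from 20.5% to 20.8% for the share without the consensus, from 24.1% to 27.1% for promoters, from 15.5 to 18.4 points for the promoter difference, from 6 to 7 motifs, and from 49.9% to 50.5% for neighbours. The promoter difference from weaker peaks was 0.0704 points with A or G as last letter and 1.31 in the strongest 20%, opposite to -3.92, and the CEBP difference was -0.720 in the strongest 5%, opposite to 3.89. The GRE difference from strong peaks with the consensus left out 0 in every alternative run. Between strong and weaker peaks with no GATA word it ran from 8.56 points (15-letter form) to 21.3 (strongest 5%) in alternatives chosen after seeing the data, and its interval left out 0 in each. The causes of these shifts were not tested. No paired analysis was possible because the design has 1 group.

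Unknown read depth, an unstated signal scale and libraries of 1 biosample limit all values, and a motif match does not show which protein bound.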
